A study of Homo sapiens with 18 samples.

Results

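A375 is an established human melanoma cell line that carries an activating BRAF mutation. A-485 is a small-molecule inhibitor of the catalytic acetyltransferase domain shared by the coactivators p300 (EP300) and CBP (CREBBP). The series asked which genes A-485 changes in melanoma lines described as sensitive or resistant, and the labels do not say which kind A375 is. Of the 18 arrays of the series, the 6 with A375 in their title were taken, and the other 12 arrays, of the melanoma lines SKMEL5 and WM2664, served for comparison only. The 6 arrays fell into 4 groups: 2 arrays of A375 cells given DMSO, the solvent, for 6 h, 1 array of A375 cells given A-485 for 6 h, and the same 2 and 1 arrays at 24 h. The labels give the A-485 dose as 3 mM, a unit that could not be checked here. Nothing in the labels says that the 2 DMSO arrays of a time came from separate cultures. A p-value here thus reflects no more than how far the DMSO pairs of the 3 lines spread, which may be technical. Each A-485 group was a single array, and its spread was taken to be that of the DMSO pairs.

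p300 and CBP are recruited by transcription factors to enhancers and promoters, where they acetylate histones and other proteins and help to recruit the transcription machinery. Genes that depend on large clusters of enhancers, such as lineage factors, growth factor and cytokine genes and MYC, are known to need this activity. In melanoma, the lineage factors MITF and SOX10 maintain the melanocytic program, while a state with low MITF is known for the expression of AXL, WNT5A, matrix genes and secreted cytokines.

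The values are array intensities that were scaled to a common distribution, with every value below 32, the floor, set to 32. Differences are given on the log2 scale as the A-485 array minus the mean of the 2 DMSO arrays of the same time, with the standard error (SE) of the limma model, and a gene was called at a Benjamini-Hochberg adjusted p below 0.05. A difference with 1 side at the floor is a lower bound on the size. The SE pools the 6 DMSO pairs of all 3 lines, and a pair at the floor adds no spread. Genes at the floor on all 12 arrays of the other lines therefore have a lowered SE and adjusted p. Examples are IL7R, INHBA, HAPLN1, COL13A1, COL5A1, C3, AP1M2 and CD163L1. Since the scaling forces 1 distribution on all arrays, a change common to most genes would be hidden. The melanocyte factors MITF and SOX10 were above the floor on all 6 A375 arrays. The pigment genes MLANA, TYR and TYRP1 were at the floor on 5 of the 6, and the epithelial markers CDH1 and EPCAM and the leukocyte marker PTPRC on all 6. The exception was the first DMSO array at 6 h. It read 263.9 for MLANA, 178.5 for TYRP1, 62.05 for TYR and 222.9 for PMEL, against 32, 32, 32 and 40.99 on the second, and across 34 probe sets high in SKMEL5 it held a median excess of 0.838% of the SKMEL5 level. Melanocyte markers as a list had a summed intensity of 1943 on that array and between 1324 and 1489 on the other 3 DMSO arrays. No result below rests on these pigment genes, and calls lost without that array are named beside the genes.

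The response was larger than the spread between DMSO arrays at both times. Among genes with all 3 arrays of a time above the floor, 52 differed at least 2-fold between the 2 DMSO arrays at 6 h and 45 at 24 h, while 354 and 440 differed at least 2-fold between A-485 and the DMSO mean. Of those, 308 were lower and 46 higher at 6 h, and 362 were lower and 78 higher at 24 h. The median absolute difference was 0.0818 between DMSO arrays against 0.182 for the response at 6 h, and 0.0922 against 0.206 at 24 h. The large differences thus lay mostly on the side of lower expression.

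**Figure D1:**
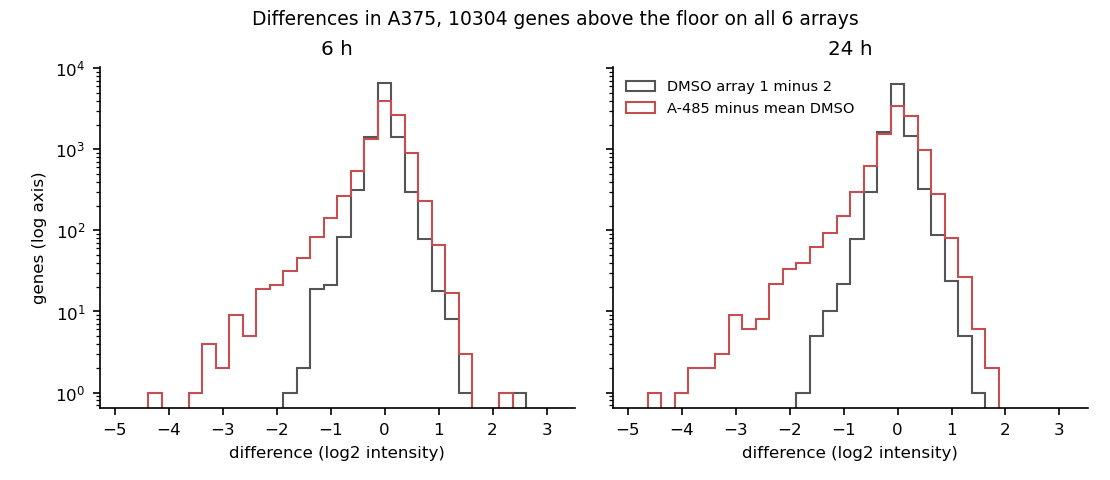
Distribution of differences in A375 at 6 h and 24 h over the 10304 genes above the floor on all 6 arrays (x axis: difference in log2 intensity; y axis: genes on a log scale). The grey line is DMSO array 1 minus array 2 and the red line A-485 minus the DMSO mean; the red line extends further to the left than to the right at both times.

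At 6 h, 1798 of 14130 genes tested were called (12.7%), 828 higher (5.86%) and 970 lower (6.86%) with A-485. At 24 h, 2465 were called (17.4%), 1279 higher (9.05%) and 1186 lower (8.39%). Of the calls that were at least 2-fold, 331 were lower (2.34%) and 53 higher (0.375%) at 6 h, and 432 were lower (3.06%) and 80 higher (0.566%) at 24 h. The balance of directions depended on the scaling: with the intensities as deposited, 425 genes were called at 6 h, 26.8% of them higher against 46.1% with scaling, and 632 at 24 h, 22.9% of them higher against 51.9%. The response itself differed between the times for 549 genes (3.89%), 276 higher at 24 h (1.95%) and 273 lower (1.93%), by the test of the difference between both responses. The A375 DMSO arrays of 24 h differed from those of 6 h for 388 genes (2.75%), 208 higher (1.47%) and 180 lower (1.27%), and 16 of them were at least 2-fold apart, so each response was read only against DMSO of its own time.

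The genes were sorted by when they changed. A gene was early only if it was called at 6 h, not called at 24 h and its response differed between the times, which held for 121 genes (0.856%), 63 higher and 58 lower. It was late only if called at 24 h, not at 6 h, with a difference between the times, which held for 206 genes (1.46%), 120 higher and 86 lower. At both times and in 1 direction, 1029 genes were called (7.28%), 650 lower and 379 higher, and 38 were called in opposite directions (0.269%). A further 610 genes were called at 6 h alone (4.32%) and 1192 at 24 h alone (8.44%), but their responses at both times did not differ by the test, so their timing is not resolved. Genes called at both times were 59.3% of the 6 h calls and 43.3% of the 24 h calls. Of the 1029 genes, the response was smaller at 24 h for 69 and larger for 110. Many of the early and late genes had an array at the floor: 60 of the 121 early genes and 147 of the 206 late genes were above it on all 6 arrays. Of the 60, 19 were higher and 41 lower, and of the 147, 80 were higher and 67 lower. With a floor of 16, there were 43 early and 88 late genes, and with unscaled values 18 and 40.

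**Figure D2:**
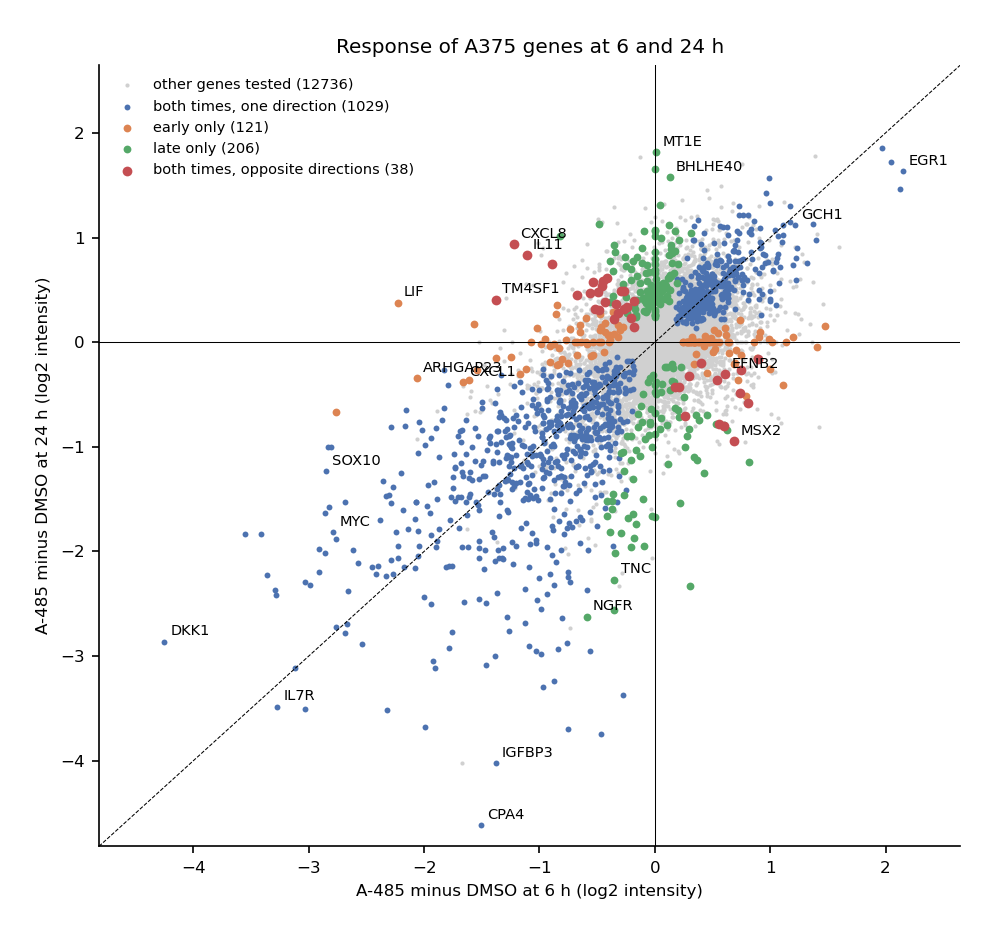
Response of each tested A375 gene at 6 h (x axis) against 24 h (y axis), both as A-485 minus DMSO in log2 intensity; the dashed line marks equal responses. Colours give the 1029 genes called at both times in 1 direction, the 121 early only, the 206 late only and the 38 in opposite directions, and the named genes are those described in the text.

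MITF, the melanocyte lineage factor, fell at both times. It read 459.5 and 406.7 on the DMSO arrays and 198 with A-485 at 6 h, and 426.2 and 468.4 against 158.9 at 24 h. The A-485 array lay below both DMSO arrays each time, with differences of -1.13 ± 0.08 (adjusted p 0.00013) and -1.49 ± 0.08 (adjusted p 2.9e-05). MYC, the growth-promoting transcription factor, read 607.6 and 568.9 against 85.01 at 6 h and 487.7 and 564 against 149.3 at 24 h. Its fall was deeper at 6 h, -2.79 ± 0.08 (adjusted p 3.1e-06), than at 24 h, -1.81 ± 0.08 (adjusted p 1.4e-05), and the difference between the times was 0.98 ± 0.12 (adjusted p 0.0055). The targets of the inhibitor were not called: EP300 read 240.2 and 246.7 against 246.1 at 6 h and 218.5 and 226.8 against 280.4 at 24 h, with differences of 0.02 ± 0.19 and 0.33 ± 0.19. CREBBP read 790.5 and 611.6 against 708.7, and 644.3 and 753.9 against 907.8, with differences of 0.03 ± 0.15 and 0.38 ± 0.15. The calls of MITF at both times and of MYC at 24 h were lost when the A375 arrays were fitted alone, and the difference of MYC between the times also with unscaled values or without the 3 DMSO arrays that held another line's transcripts.

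The genes that fell at both times included cell surface proteins, secreted signals and signalling adaptors. IL7R, a cytokine receptor chain best known from lymphocytes, read 762.3 and 849.1 against 83.12 at 6 h and 639.9 and 635.2 against 57.03 at 24 h. Its differences of -3.27 ± 0.06 (adjusted p 5.4e-07) and -3.48 ± 0.06 (adjusted p 1.3e-07) did not differ from each other by the test. IL7R was at the floor on all 12 arrays of the other lines, which lowers its SE and adjusted p. ST6GALNAC5, a sialyltransferase, fell from 500.3 and 474.9 to 55.94, and from 381 and 431.8 to 46.95. Both genes were about as far below DMSO at 24 h as at 6 h. DKK1, a secreted Wnt inhibitor, read 4794 and 4738 against 250 at 6 h and 4684 and 4405 against 625.4 at 24 h, differences of -4.25 ± 0.21 (adjusted p 2.5e-05) and -2.86 ± 0.21 (adjusted p 0.00014). FLRT3, a membrane protein of cell adhesion, had differences of -2.67 and -2.70, and PHLDB2, a protein of the cell cortex, of -2.66 and -2.37. The calls of these 5 genes at both times held under every alternative tried.

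Several signalling genes fell further at 6 h than at 24 h. INHBA, which encodes the subunit of activin A, read 1858 and 1804 against 178.6 at 6 h and 1565 and 1708 against 350.3 at 24 h, and the responses of -3.36 ± 0.06 and -2.22 ± 0.06 differed by 1.14 ± 0.08 (adjusted p 0.00057). IRS1, the adaptor of the insulin receptor, read 576.1 and 569.8 against 58.99, and 486 and 479 against 90.34. SOX10, the neural crest factor upstream of MITF, read 722.2 and 913.3 against 112.5 at 6 h and 728.8 and 772.2 against 318.9 at 24 h. Its response of -2.85 at 6 h was smaller at 24 h, at -1.23, a difference of 1.62 ± 0.18 (adjusted p 0.0046). For SOX10 and for PRDM1, a transcriptional repressor with responses of -3.29 and -2.37, the difference between the times was lost when probe sets of the gene were averaged. With a floor of 64 that of PRDM1 turned to -0.037. That of IRS1 was lost without the 3 carrying arrays. Other genes fell at both times: AMIGO2, an adhesion protein, had responses of -3.55 and -1.83, and SHISA2 of -3.03 and, with A-485 at the floor, -3.50.

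Fewer genes rose than fell by at least 2-fold, 53 against 331 at 6 h and 80 against 432 at 24 h. EGR1, an immediate early zinc finger factor, read 284.8 and 311.2 on the DMSO arrays and 1320 with A-485 at 6 h, and 227.5 and 249.9 against 742.1 at 24 h. Its rise was 2.15 ± 0.13 (adjusted p 5.4e-05) and 1.64 ± 0.13 (adjusted p 0.00016). Set against the mean rise in SKMEL5 and WM2664, it differed by -0.601 (adjusted p 0.048) and -0.638 (adjusted p 0.022). FOS, a subunit of the AP-1 factor, read 42.5 and 32 against 160.6, and 32 and 36.35 against 93.8, so 1 DMSO array of each time was at the floor. MXD1, a partner of MAX that opposes MYC, read 175.9 and 170.7 against 448.1 and 111.8 and 140.6 against 274.6, rises of 1.37 ± 0.15 and 1.13 ± 0.15. GCH1, the first enzyme of tetrahydrobiopterin synthesis, rose by 1.21 and 1.12. GRK6, a kinase of G protein-coupled receptors, rose by 1.17 and 1.30, PNRC1, a nuclear receptor coactivator, by 1.18 and 1.15, and DHRS2, a dehydrogenase, by 1.11 and 1.12. Other rises were chosen by size alone. ELOVL7, a fatty acid elongase, read 36.12 and 37.97 against 97.57 at 6 h and 57.89 and 49.52 against 105.1 at 24 h. CCNG2, an atypical cyclin, read 90.88 and 101.4 against 190.5, and 143.9 and 161.6 against 452.6, and its rise of 1.57 ± 0.09 at 24 h exceeded that of the other lines by 1.045 (adjusted p 0.000504). LMO2, a LIM cofactor of blood cells, read 67.17 and 45.92 against 168.2 at 6 h (adjusted p 0.0088). The 6 h call of GRK6 was lost without either DMSO array of that time and the 24 h call of PNRC1 without either of its own; those of MXD1 and LMO2 at 6 h and DHRS2 at both times were lost without the 3 carrying arrays.

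EGR1 is shown by its promoter because its rise stood against the fall of most strongly changed genes. The CArG box, the site of the serum response factor, was searched on both strands in the 250 bases before the RefSeq start (GRCh38.p14). It stood 2 times in EGR1 (chr5:138465229-138465478, plus strand, boxes in capitals), and in 1.14% of the 27305 promoters of the table. Among the 11373 tested genes with a promoter it stood in 1.02%. It stood in 4 of 316 genes higher at both times (1.27%) and in 10 of 505 lower at both times (1.98%). The match in EGR1 is a description of the letters and says nothing about binding.
EGR1: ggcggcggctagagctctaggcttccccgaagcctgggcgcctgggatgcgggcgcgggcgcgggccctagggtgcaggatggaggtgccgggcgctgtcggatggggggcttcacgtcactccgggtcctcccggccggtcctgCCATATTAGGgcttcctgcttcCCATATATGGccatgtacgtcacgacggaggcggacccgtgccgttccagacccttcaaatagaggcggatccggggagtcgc

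The early-only genes that were lower at 6 h included cytokines and their relatives. LIF, a cytokine of the family of IL6, read 273.6 and 257.9 on the DMSO arrays and 56.66 with A-485 at 6 h, and 232.4 and 301.8 against 344 at 24 h. The A-485 array lay below both DMSO arrays at 6 h and above both at 24 h, and the response of -2.23 ± 0.15 (adjusted p 0.0001) differed from that of 0.38 ± 0.15 (adjusted p 0.14) by 2.61 ± 0.21 (adjusted p 0.0013). CXCL1, a neutrophil chemokine, read 387.5 and 389 against 122.6, and 339 and 359.5 against 267.9. Its response of -1.66 ± 0.19 at 6 h was called, but its difference between the times, 1.28 ± 0.26 (adjusted p 0.046), was lost without any 1 of the 4 A375 DMSO arrays.

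Further early falls were in a cholesterol transporter and in regulators of transcription. ABCA1, which exports cholesterol from cells, read 246.8 and 252.8 against 81.78 at 6 h and 362 and 389.2 against 291.7 at 24 h. MAML3, a coactivator of Notch signalling, read 111 and 99.58 against 35.38, close to the floor, and 151.8 and 131.7 against 159. JADE2, a PHD finger protein, changed by -1.54 ± 0.11 at 6 h against -0.27 ± 0.11 at 24 h, and ARHGAP23 by -2.06 ± 0.14 against -0.35 ± 0.14. ABCA1 rose between 6 h and 24 h in DMSO as well, by 0.59. Without the 3 carrying arrays the differences between the times of ABCA1 and MAML3 were lost.

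Of the early-only genes, 63 were higher at 6 h, with a median response of 0.499, and 58 lower, with a median of -0.671. Only 19 of the 63 were above the floor on all 6 arrays, against 41 of the 58. ZNF335, a zinc finger protein, read 58.52 and 60.96 against 118.3 at 6 h and 81.05 and 89.58 against 86.79 at 24 h, a rise of 0.99 ± 0.06 (adjusted p 7e-05) at 6 h only. PLAGL1, an imprinted zinc finger gene, read 214 and 234.6 against 418.9, and 185.1 and 180 against 189.2. The A-485 array lay above both DMSO arrays at 6 h for both genes. ZNF273, also of the zinc finger family, rose by 0.92, FOXA1, a pioneer factor, by 0.75, FBXO33, an F-box protein, by 0.74, and RBM26-AS1, an antisense transcript, by 0.79. The difference between the times was lost without 1 A375 DMSO array for each of these 4: the second of 24 h for ZNF273 and FOXA1, the first of 24 h for FBXO33, and for RBM26-AS1 either of 24 h or the first of 6 h, without which its 6 h call was lost too. PLAGL1 lost its calls without cross-hybridizing probe sets, among which is its brightest.

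Both cytokine genes with the largest turn were below DMSO at 6 h and above it at 24 h. CXCL8, the chemokine also known as interleukin-8, read 199.5 and 246.2 against 95.01 at 6 h and 218.5 and 288 against 479.4 at 24 h. The responses of -1.22 ± 0.17 (adjusted p 0.0035) and 0.93 ± 0.17 (adjusted p 0.0091) differed by 2.16 ± 0.24 (adjusted p 0.0043). IL11, another cytokine of the family of IL6, read 530.8 and 563.7 against 253.2 and 532 and 634.4 against 1033, responses of -1.11 ± 0.09 (adjusted p 0.0003) and 0.83 ± 0.09 (adjusted p 0.001), with a difference of 1.94 ± 0.13 (adjusted p 0.00054). In both genes the A-485 array lay outside the DMSO pair at each time, on opposite sides. IL6 itself did not turn: it read 152.7 and 161.7 against 32.19 and 170.3 and 160.7 against 39.07. For CXCL8, the 24 h call and the difference were lost without the 3 carrying arrays, and the 6 h call without cross-hybridizing probe sets. For IL11, a dimmer second probe set showed -1.3 at 6 h but 0.143 at 24 h.

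The promoters of these 2 cytokine genes are shown because each holds the AP-1 motif TGACTCA (or TGAGTCA on the other strand), the site of FOS and JUN dimers, in the 250 bases before the RefSeq start. The motif was searched on both strands and stood in 4.16% of the 27305 promoters and in 2.68% of the 11373 tested genes with a promoter. It stood in 3 of the 20 genes with a promoter that were first lower and then higher. CXCL8 and IL11, shown because they hold it, are 2 of those 3, so that share says nothing beyond them. Among the genes lower at both times it stood in 30 of 505 (5.94%), and among those higher at both times in 5 of 316 (1.58%). Among the early-only and late-only genes that fell it stood in 3 of 46 and 3 of 73. CXCL8 lies at chr4:73740319-73740568 on the plus strand and IL11 at chr19:55370464-55370713 on the minus strand (GRCh38.p14), with the motif in capitals.
CXCL8: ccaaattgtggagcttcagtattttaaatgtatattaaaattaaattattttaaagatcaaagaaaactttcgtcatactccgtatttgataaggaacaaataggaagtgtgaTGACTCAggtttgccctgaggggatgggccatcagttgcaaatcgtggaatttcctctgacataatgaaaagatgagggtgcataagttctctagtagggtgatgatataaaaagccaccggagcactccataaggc
IL11: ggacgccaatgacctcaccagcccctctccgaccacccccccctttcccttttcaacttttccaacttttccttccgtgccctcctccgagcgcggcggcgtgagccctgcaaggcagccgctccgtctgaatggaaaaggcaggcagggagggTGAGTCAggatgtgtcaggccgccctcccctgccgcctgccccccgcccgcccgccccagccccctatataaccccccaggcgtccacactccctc

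Other genes that were first lower and then higher had smaller responses at 24 h. TM4SF1, a membrane protein of the tetraspanin-like family, read 2750 and 2615 against 1030 at 6 h and 2622 and 2767 against 3574 at 24 h, responses of -1.38 ± 0.09 and 0.41 ± 0.09. KLF10, a factor induced by TGF-beta, moved from -0.45 to 0.58, ASAP2, a GTPase-activating protein for ARF, from -0.67 to 0.45, and CD163L1, a scavenger receptor, from -0.42 to 0.62. In the opposite order, MSX2, a homeobox factor of the neural crest, read 74.93 and 73.63 against 119.8 at 6 h and 81.28 and 78.5 against 41.56 at 24 h. EFNB2, an ephrin ligand, read 412 and 433.2 against 644.3, and 365.8 and 373.2 against 298.2. PIK3R3, a regulatory subunit of phosphoinositide kinase, moved from 0.80 to -0.58, VSNL1, a calcium sensor, from 0.55 to -0.78, DYNLL2, a dynein light chain, from 0.54 to -0.36, and DNAJB1, a cochaperone of the heat shock response, from 0.21 to -0.43. Some of these calls rested on single DMSO arrays. The 24 h call was lost without the first 24 h array for TM4SF1, without either for ASAP2, and without any 1 of the 4 for DYNLL2. The 6 h call was lost without either 6 h array for KLF10, without the second for CD163L1 and without any 1 of the 4 for DNAJB1.

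The late-only class held 86 genes that were lower at 24 h. TNC, the matrix protein tenascin C, read 1130 and 1323 on the DMSO arrays and 959.2 with A-485 at 6 h, and 1142 and 1197 against 242.4 at 24 h. Its responses of -0.35 ± 0.12 (adjusted p 0.13) and -2.27 ± 0.12 (adjusted p 3.2e-05) gave a difference of -1.92 ± 0.18 (adjusted p 0.0021). PYGB, a glycogen phosphorylase, read 691.6 and 664.2 against 530.3, and 712.7 and 678.1 against 118.2. At 24 h both genes were far below their DMSO pair, and at 6 h they also lay below it but were not called. C3, the central complement component, changed by -2.02 ± 0.16 at 24 h, CALB2, the calcium-binding protein calretinin, by -1.96 ± 0.14, AP1M2, a subunit of an adaptor complex of vesicle transport, by -1.95 ± 0.08, and LOC389199, an uncharacterized locus, by -1.87 ± 0.23. NGFR, a nerve growth factor receptor of neural crest cells, was chosen for mention after its values were seen. It was at the floor with A-485 at 24 h, which bounds its difference at -2.62 or beyond. The difference between the times was lost for C3 without the 3 carrying arrays, and for LOC389199 without either 6 h DMSO array or the first of 24 h.

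The 120 genes with a late-only rise included MT1E, MT1F and MT1X, which encode metallothioneins, small proteins that bind zinc and copper. MT1E read 626.9 and 659.2 against 649.3 at 6 h and 643.6 and 670.5 against 2308 at 24 h, a response of 0.01 ± 0.09 and then 1.81 ± 0.09 (adjusted p 2.3e-05), with a difference of 1.80 ± 0.13 (adjusted p 0.00077). MT1F read 1481 and 1602 against 1592, and 1675 and 1757 against 4265. MT1X read 2785 and 2898 against 2658, and 3165 and 3251 against 6686. At 6 h the A-485 array thus lay between the DMSO arrays for MT1E and MT1F and just below them for MT1X, and at 24 h it lay above them for all 3. Of the 9 tested genes of the metallothionein and zinc transport list, none rose and 2 fell at 6 h, and 4 rose and 2 fell at 24 h, with medians of 0.0474 and 1.06 against 0 over all genes tested. Over all genes tested, 5.86% rose and 6.86% fell at 6 h, and 9.05% rose and 8.39% fell at 24 h. The members that fell were SLC30A1 and SLC39A10, both zinc transporters, at both times, and they are named after their values were seen. The fourth was MT1G, with 1.32 ± 0.21 at 24 h, and its difference between the times (adjusted p 0.083) missed the threshold. Each of these genes is read by a probe set marked as cross-hybridizing, so the members of the family cannot be told apart, and the 4 calls are not 4 separate genes. The response of MT1E exceeded the mean of both other lines by 1.22 (adjusted p 0.00031). Those of MT1F, MT1G and MT1X differed from that mean by -0.08 (adjusted p 0.79), 0.35 (adjusted p 0.411) and 0.17 (adjusted p 0.499), and were not called. The median of the list at 24 h was 0.771 in SKMEL5 and 0.913 in WM2664.

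Of these 4 metallothioneins, MT1X had a promoter in the table. The metal response element TGCACNC or TGCGCNC, the site of the zinc sensor MTF1, was searched on both strands in its 250 bases before the RefSeq start (chr16:56682220-56682469, plus strand, GRCh38.p14). It matched 4 times, in capitals, and stood at least once in 24.7% of the 27305 promoters. Among the 11373 tested genes with a promoter it stood in 32.5%, and among the late-only genes that rose in 30 of 97 (30.9%). MTF1 itself was not called at either time, at 0.20 and -0.01.
MT1X: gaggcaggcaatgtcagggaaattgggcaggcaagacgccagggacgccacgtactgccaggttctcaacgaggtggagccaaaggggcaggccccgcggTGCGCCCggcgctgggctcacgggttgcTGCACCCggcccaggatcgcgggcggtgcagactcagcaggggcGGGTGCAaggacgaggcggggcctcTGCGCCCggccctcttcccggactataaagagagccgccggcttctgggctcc

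Other late rises were of separate genes. DLK2, a relative of the Notch ligands, was at the floor on the 3 arrays of 6 h and read 46.5 and 36.27 against 129.1 at 24 h. BHLHE40, a transcriptional repressor of the clock and of hypoxia, read 182 and 203.8 against 210.8 at 6 h and 342.8 and 364.9 against 1056 at 24 h. It rose by 1.58 ± 0.08 (adjusted p 1.9e-05) at 24 h, over DMSO arrays that were themselves 0.88 higher than at 6 h, and by 1.67 more than in the other lines (adjusted p 3.1e-05). HGSNAT, a lysosomal acetyltransferase, read 103.9 and 93.5 against 107.5, and 113.9 and 107.4 against 239.7. TFPI2, a secreted protease inhibitor, rose by 1.07 ± 0.13, but its difference between the times was lost without any 1 of the 4 DMSO arrays. GPR107, a membrane protein of the secretory pathway, rose by 1.13 ± 0.23 on its brightest probe set, while 3 others showed from 0.0404 to 0.374, and its difference between the times was lost without either 6 h DMSO array.

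**Figure D3:**
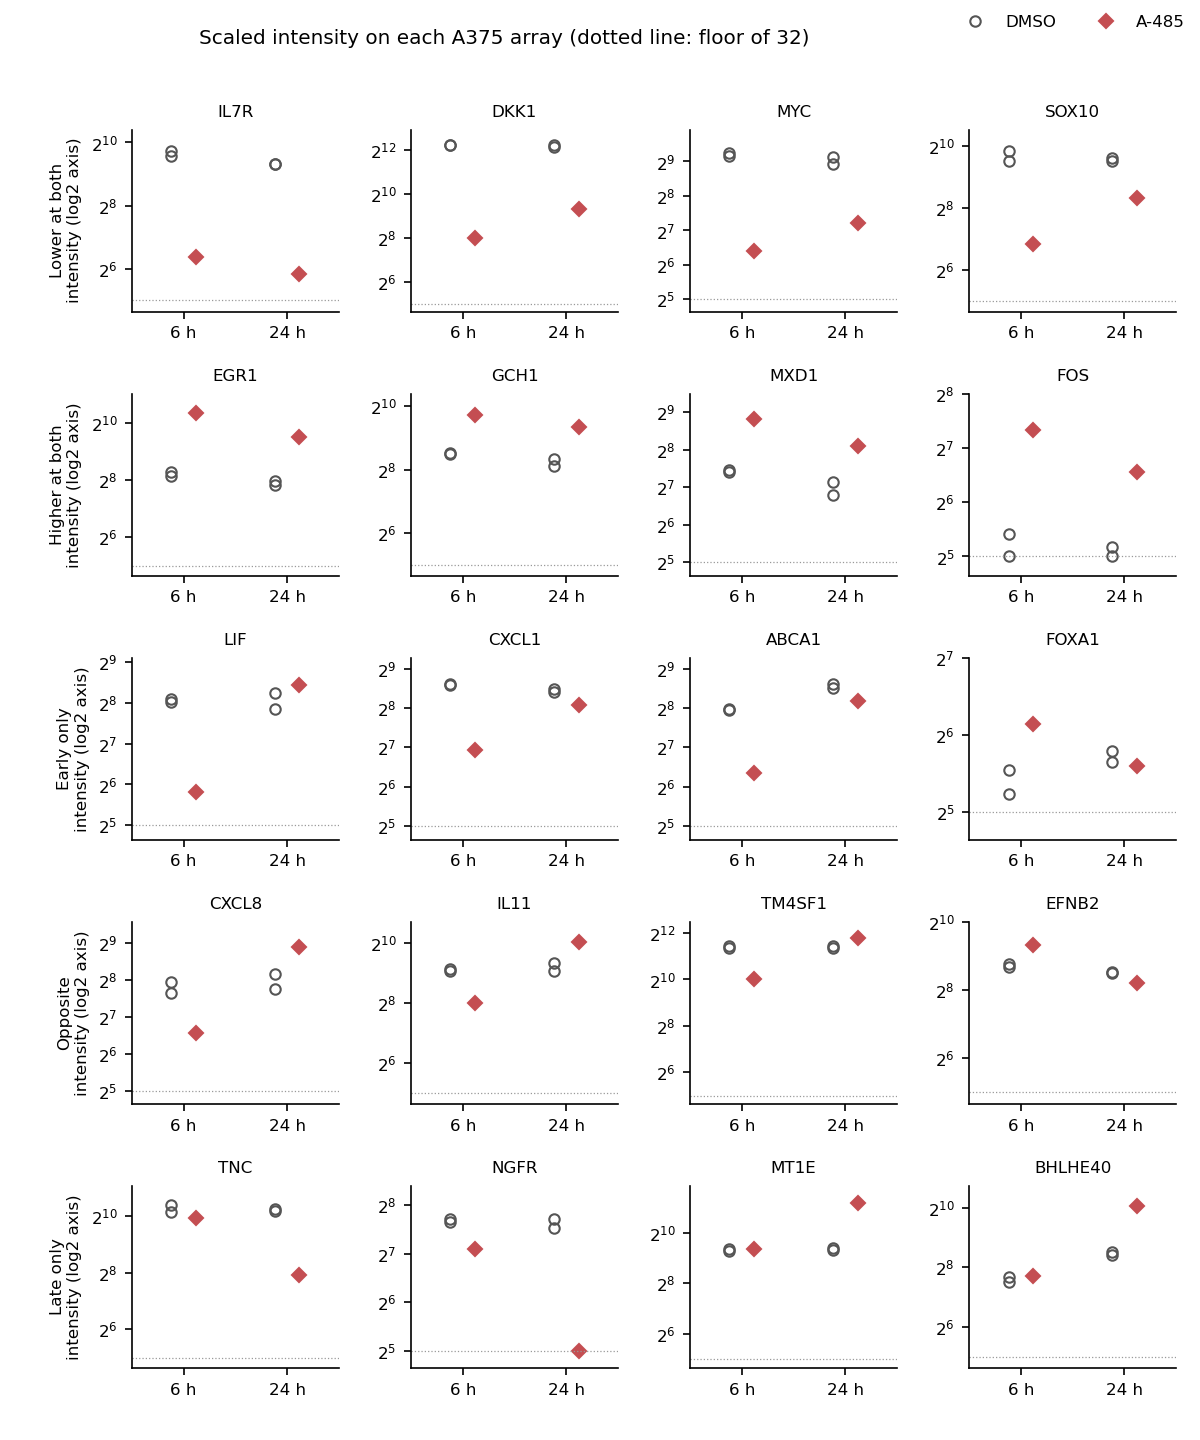
Scaled intensity on each of the 6 A375 arrays for 20 genes, 1 panel each (x axis: time; y axis: intensity on a log2 axis). Open circles are the 2 DMSO arrays of a time, the diamond is the A-485 array and the dotted line is the floor of 32. CXCL8, IL11 and TM4SF1 lie below DMSO at 6 h and above it at 24 h. MT1E lies above both DMSO arrays at 24 h alone, and BHLHE40 far above them at 24 h and just above them at 6 h.

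Another set of genes was called lower at both times but fell much further by 24 h. CPA4, a secreted carboxypeptidase, read 876.7 and 675.9 against 271.4 at 6 h and 930.1 and 850.7 against 36.22 at 24 h, differences of -1.50 and -4.62. IGFBP3, which binds insulin-like growth factors, read 869.9 and 890.5 against 337.8, and 565.1 and 567.3 against 34.9. Its response of -1.38 ± 0.05 (adjusted p 7.2e-06) and -4.02 ± 0.05 (adjusted p 4e-08) differed by -2.64 ± 0.07 (adjusted p 8.4e-06). Both genes ended close to the floor. SERPINB7, a protease inhibitor, read 1381 and 1283 against 964.5 and 1271 and 1242 against 94.06. HAPLN1, which links hyaluronan to matrix proteoglycans, read 606.4 and 729.3 against 395.7, and 532.5 and 590.3 against 43.22. SEMA3C, a secreted guidance signal, changed by -0.97 and -3.30, and COL13A1, a membrane collagen, by -0.27 and -3.37. The falls of IGFBP3 and SEMA3C at 24 h exceeded the mean response of both other lines, by differences of -3.16 (adjusted p 3.5e-07) and -3.37 (adjusted p 1.9e-05). The 6 h call of CPA4 was lost without either 6 h DMSO array, and that of COL13A1 when probe sets were averaged.

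As a list, matrix and adhesion genes fell at both times and further at 24 h. Of 37 tested, 19 fell and none rose at 6 h, and 21 fell and 1 rose at 24 h, with medians of -0.396 and -0.66 against 0 over all genes tested, of which 6.86% and 8.39% fell. The response of 10 members was lower at 24 h than at 6 h, and of none higher. The gene lists share members, so counts of different lists are not separate results. TNC, THBS1 and TGFBI stand on this list and on that of the MITF-low state. INHBA stands on the MITF-low and TGF-beta lists, and LIF, IL6 and IER3 on the MAP kinase and NF-kappaB lists. COL5A1, a fibrillar collagen chain, read 244.2 and 247.7 against 166.6, and 305.6 and 284.9 against 38.25. TIMP3, an inhibitor of matrix proteases, read 1386 and 1238 against 716, and 1848 and 1284 against 162.9. THBS1, the matrix protein thrombospondin, read 8257 and 8672 against 4730 at 6 h and 7593 and 7392 against 979.6 at 24 h, differences of -0.84 and -2.94. Without the 3 carrying arrays the count of falls at 6 h was 5 in place of 19, and with unscaled values it was 1, while those at 24 h were 19 and 10. The 6 h call of TIMP3 was lost without the first DMSO array of 6 h.

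Genes of the MITF-low state fell, as did MITF itself. Of 29 tested, 18 fell and 1 rose at 6 h, and 19 fell and 1 rose at 24 h, with medians of -0.504 and -1.22. WNT5A, a secreted ligand of this state, read 1385 and 1337 against 287.5, and 1430 and 1267 against 383.9. The member that rose at 6 h was CCN2, a matricellular growth factor, which read 1823 and 1926 against 5137 at 6 h and 1605 and 1360 against 1905 at 24 h, and the member that rose at 24 h was CXCL8. Over all genes tested, 6.86% and 8.39% fell. The falls at 6 h numbered 10 without the 3 carrying arrays and 9 with unscaled values or with the A375 arrays alone. The responses of these genes were not compared between lines as a list, since members such as INHBA and NRG1 were at the floor on all 12 arrays of the other lines and could not fall there.

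Lineage and neural crest factors were lower, beyond SOX10 and MITF. Of 24 tested, 11 fell and 2 rose at each time, with medians of -0.491 and -0.359, against falls of 6.86% and 8.39% of all genes tested. ERBB3, a receptor of neuregulins, read 320.7 and 294 against 79.93 and 377.3 and 316.6 against 60.95, although 1 of its dimmer probe sets showed -0.193 and -0.0382. TBX3, a T-box repressor, changed by -1.77 and -1.70, and SNAI2, a neural crest repressor, by -1.27 and -1.62. The 11 falls came to 5 and 6 with unscaled values and to 0 and 2 with the A375 arrays alone.

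Genes that report MAP kinase activity were lower at 6 h and partly returned. Of 24 tested, 15 fell and 1 rose at 6 h, and 11 fell and 1 rose at 24 h, with medians of -0.831 and -0.316, and the response of 6 was higher at 24 h and of none lower. Over all genes tested, 6.86% fell at 6 h and 8.39% at 24 h. The falls came to 9 at 6 h with unscaled values, and to 7 and 5 with the A375 arrays alone. PLK2, a stress-responsive kinase, read 3718 and 3456 against 764.1, and 3626 and 3070 against 863. The 3 early-only members were LIF, DUSP6 and IER3. DUSP6, the phosphatase that switches off ERK, had responses of -0.67 and -0.12, and IER3, an immediate early gene, of -0.98 and -0.01, and both are named here as the remaining members of that count. EGR1 was the member that rose, at both times.

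The TGF-beta, activin and BMP genes were lower at several levels of the pathway. Of 24 tested, 15 fell at 6 h and none rose, and 11 fell and 1 rose at 24 h, with medians of -0.827 and -0.558, while 6.86% and 8.39% of all genes tested fell. Among ligands, INHBA fell as given above. FST, the secreted antagonist of activin, read 1038 and 1049 against 208.6 at 6 h and 976.8 and 1202 against 94.49 at 24 h, and BAMBI, a decoy receptor, 261.4 and 229.4 against 115.1, and 229 and 196.2 against 47.72. PMEPA1, a feedback inhibitor, read 1730 and 1758 against 256.4, and 1468 and 1536 against 408.3. Both sides of the pathway, an activin subunit and its antagonists, were thus below DMSO on each A-485 array. Without the 3 carrying arrays 9 members fell at 6 h, with unscaled values 6 at 6 h and 7 at 24 h, and with the A375 arrays alone 5 at each time.

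Members of the lists of receptor kinases and growth factor signalling, of YAP-TEAD targets and of the Wnt pathway were called lower, where 6.86% of all genes tested fell at 6 h and 8.39% at 24 h. Of 29 receptor kinase and growth factor genes, 15 fell and 1 rose at 6 h and 12 fell and 2 rose at 24 h. NRG1, a ligand of ERBB3, read 559.9 and 536.2 against 286.7, and 632.5 and 515.1 against 107.5, below both DMSO arrays at each time. Of 22 YAP-TEAD targets, 12 fell and 2 rose at 6 h and 10 fell and 1 rose at 24 h. CCN2, given above, was 1 of the 2 that rose at 6 h, by 1.455 (adjusted p 0.0064). ANKRD1, a muscle and YAP target gene, reached the floor at both times, which bounds its differences at -2.91 and -2.20 or beyond, and AJUBA, a LIM protein of the pathway, changed by -2.02 and -0.84, of which the 24 h call was lost without the 3 carrying arrays, with unscaled values and with the A375 arrays alone. Of 20 Wnt genes, 9 fell at each time and 2 and 3 rose. SFRP1, a secreted Wnt antagonist, read 635.8 and 624.5 against 422.3 and 633.9 and 598.2 against 155.7, and FZD2, a Wnt receptor, changed by -1.97 and -1.36. The YAP-TEAD falls came to 5 and 6 without the 3 carrying arrays, to 3 and 5 with unscaled values and to 1 and 0 with the A375 arrays alone. The Wnt falls came to 5 and 6 with unscaled values and to 3 and 5 with the A375 arrays alone. The receptor kinase falls at 6 h came to 9 without the carrying arrays or unscaled, those with the A375 arrays alone to 8 and 7, and the 24 h call of FZD2 was lost without the first 24 h DMSO array.

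NF-kappaB and inflammatory genes held several of the genes that returned. Of 24 tested, 8 fell and 1 rose at 6 h, and 4 fell and 5 rose at 24 h, with medians of -0.131 and -0.00696, where 6.86% and 8.39% of all genes tested fell and 5.86% and 9.05% rose. The falls came to 5 and 3 with unscaled values and to 2 and 1 with the A375 arrays alone, and the rises at 24 h to 3 without the 3 carrying arrays. Early only were LIF, CXCL1, IER3 and PTGS2, and CXCL8 and IL11 were in opposite directions. PTGS2, the inducible cyclooxygenase, was at the floor on all 4 DMSO arrays and read 88.84 at 6 h, a rise of at least 1.47, and 35.6 at 24 h. Its 6 h call was lost without the 3 carrying arrays. Of 21 AP-1 and immediate early genes, 3 rose and 7 fell at 6 h and 5 rose and 4 fell at 24 h, with medians of 0 and -0.0228. Its 7 falls at 6 h came to 3 without the carrying arrays and to 2 with unscaled values, its 3 rises at 6 h to 1 with a floor of 16, and its 4 falls at 24 h to 1 with unscaled values. With the A375 arrays alone 1 rose and 3 fell at 6 h, and 1 rose and 1 fell at 24 h. FOS and EGR1 rose, while FOSL2, another AP-1 subunit, read 576.5 and 611.7 against 154.5 and 635.7 and 680.3 against 348, and KLF6, a zinc finger factor, 1060 and 927.9 against 221.5 and 951.7 and 947.6 against 544.3.

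**Figure D4:**
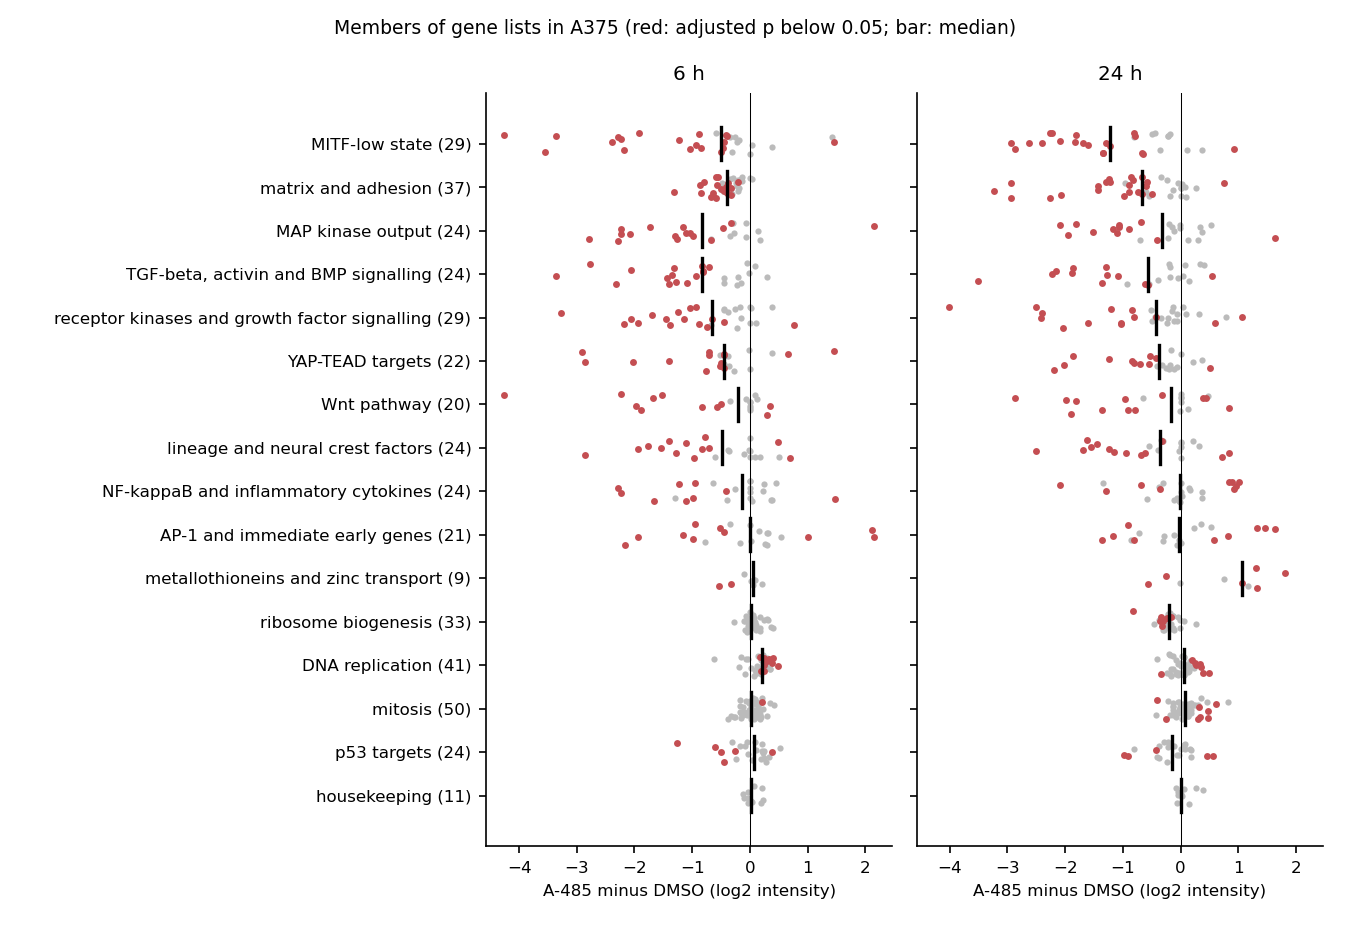
Response of the members of 16 gene lists in A375 at 6 h (left) and 24 h (right), as A-485 minus DMSO in log2 intensity (x axis), with the number of tested members in brackets. Each point is a gene, red where its adjusted p was below 0.05, and the bar is the list's median; the matrix list moves further left at 24 h and the metallothionein list moves right.

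Replication genes were called higher in part at 6 h, and few mitosis genes were called. Of 41 DNA replication genes, 10 rose and none fell at 6 h, and 7 rose and 1 fell at 24 h, with medians of 0.213 and 0.051. Of all genes tested 5.86% rose at 6 h and 9.05% at 24 h. CDC6, a loader of the replicative helicase, read 1105 and 1031 against 1404 and 903.7 and 853.9 against 1155, and CHAF1B, a histone chaperone subunit, 192.3 and 176.4 against 259.6 and 184.2 and 166.8 against 246. Without the second DMSO array of 6 h the 6 h calls of both were lost, and without the second of 24 h the 24 h call of CDC6. Of 50 mitosis genes, 1 rose at 6 h, and 6 rose and 2 fell at 24 h, with medians of 0.0172 and 0.0748. Without the 3 carrying arrays 2 and 1 of the 41 rose, and with unscaled values none. Single arrays moved these counts too: without the second 6 h DMSO array 1 of the 41 rose at 6 h, without either 24 h DMSO array 4 of the 41 at 24 h, and without the first of these 1 of the 50 at 24 h. CCND1, the D-type cyclin of G1, read 2094 and 2514 against 938.5 and 2508 and 2384 against 1133, while CCNE2, an E-type cyclin, rose by 0.70 and 0.71 and E2F8, a repressor of cell cycle genes, by 0.68 and 0.65. Among inhibitors, CDKN1C changed by -1.09 at 6 h and reached the floor at 24 h, at -2.91 or beyond. The calls of CCNE2 at both times were lost with unscaled values.

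At 24 h the same cell cycle genes differed between A375 and the mean of the other lines. A375 was not tested against WM2664 alone. The response of A375 differed from the mean of SKMEL5 and WM2664 for 1684 genes at 6 h (11.9%) and for 3430 at 24 h (24.3%). These counts include genes at the floor on all 12 arrays of the other lines, such as INHBA and IL7R. For such genes the difference only repeats the A375 response. At 24 h it was higher in A375 for 36 of the 41 DNA replication genes and 48 of the 50 mitosis genes, and lower for none, against 12.1% of all genes tested in each direction. The median response of the DNA replication genes at 24 h was 0.051 in A375, -0.473 in WM2664 and -1.78 in SKMEL5, and that of the mitosis genes 0.0748, -0.517 and -1.79. At 6 h the medians for DNA replication were 0.213 in A375, 0.173 in WM2664 and 0.0763 in SKMEL5. Of these 41 genes 3 were higher in A375 and 2 lower, against 5.6% and 6.32% of all genes tested. The mitosis medians at 6 h were 0.0172 in A375, 0.308 in WM2664 and 0.311 in SKMEL5. Of the 50 mitosis genes none was higher in A375 and 11 were lower at 6 h. Those 11 came to 3 without the 3 carrying arrays and to 1 with unscaled values. With unscaled values 13 and 14 genes were higher at 24 h. MYC fell less in A375 than in the mean of the other lines, with differences of 0.97 (adjusted p 0.0011) at the first time and 1.07 (adjusted p 0.00032) at the second.

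**Figure D5:**
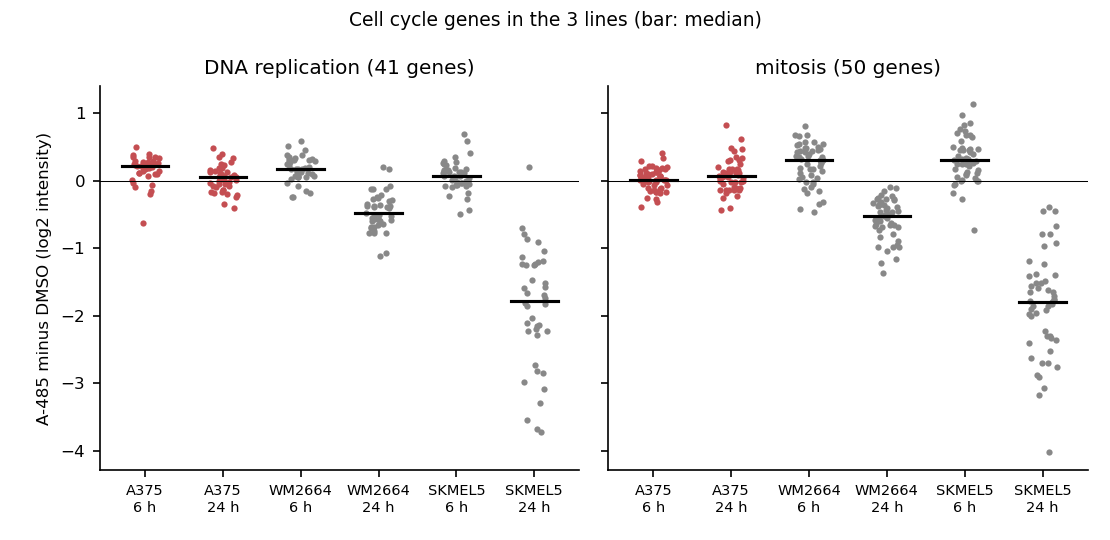
Response of 41 DNA replication genes (left) and 50 mitosis genes (right) in each line at 6 h and 24 h, as A-485 minus DMSO in log2 intensity (y axis). Each point is a gene, red in A375, and the bar is the median; at 24 h the medians are 0.051 and 0.0748 in A375 and -1.78 and -1.79 in SKMEL5.

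Ribosome biogenesis genes, many of which MYC is known to activate, were called at 24 h alone and changed by little. Of 33 tested, none was called at 6 h, and 7 fell and none rose at 24 h, with medians of 0.0269 and -0.199. Over all genes tested, 8.39% fell and 9.05% rose at 24 h. The difference between the times was called for 2 of the 7, so the timing of the others is not resolved. No member was called with unscaled values. NOP16, a nucleolar assembly factor, read 2670 and 2735 against 2629 and 2588 and 2486 against 2001. It was at -0.04 from DMSO at 6 h and at -0.34 at 24 h, and its difference between the times was not called (adjusted p 0.1). RRP9, a processing factor of ribosomal RNA, was late only, at 0.29 and -0.83, and its difference between the times was lost without either 6 h DMSO array or the second of 24 h. Of 24 p53 targets, 5 fell and 1 rose at 6 h and 3 fell and 2 rose at 24 h, against 6.86% lower and 5.86% higher, and 8.39% lower and 9.05% higher, of all genes tested. No fall at 6 h was called without the 3 carrying arrays, and 2 were called without either 6 h DMSO array. None of the 11 housekeeping genes was called at either time by limma at this threshold.

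In the remaining lists, members were called in both directions and in small numbers, to be read against 5.86% higher and 6.86% lower at 6 h, and 9.05% higher and 8.39% lower at 24 h, over all genes tested. With unscaled values or with the A375 arrays alone, most of these counts were 0 to 2. In the network of MYC and MAX, 1 of 10 rose and 2 fell at 6 h, and 2 rose and 1 fell at 24 h. MNT, a repressor that pairs with MAX, changed by -1.26 at 6 h and -0.40 at 24 h, of which the first was called, though not without the 3 carrying arrays. Of 17 G1 cyclins, kinases and E2F factors, 2 rose and 2 fell at 6 h, and 3 rose and 1 fell at 24 h. Of 6 CDK inhibitors, 2 fell at 6 h, and 1 rose and 1 fell at 24 h. CDKN1A, the p53-induced inhibitor, read 1050 and 1027 against 869.2 and 1212 and 1126 against 1073, and its 6 h call was lost without either 6 h DMSO array.

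In the BCL2 family of survival and death genes 1 of 15 rose and 2 fell at 6 h, and 2 rose and 2 fell at 24 h, about 1 gene from what the shares over all genes give. BIK, which promotes cell death, read 371 and 440.4 against 95.85 and 425.2 and 495.2 against 142, below both DMSO arrays each time. BCL2L1, which opposes cell death, read 672.6 and 679.2 against 325.3, and 744.8 and 719.2 against 502.8, and its 24 h call was lost without either 24 h DMSO array. MCL1, another survival factor, rose by 0.35 and 0.39, the first lost without either 6 h DMSO array and both without the 3 carrying arrays. BCL2A1 rose late only, by 0.83, from DMSO values of 32 and 34.99 near the floor, and its difference between the times was lost without the 3 carrying arrays.

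The genes of the acetylation and elongation machinery were mostly not called. Over all genes tested, 5.86% rose and 6.86% fell at 6 h, and 9.05% rose and 8.39% fell at 24 h. Of 28 acetylation genes, 2 rose and 3 fell at 6 h and 3 rose and 3 fell at 24 h, near those shares. CITED2, which binds p300 and CBP, read 308.7 and 311.3 against 75.21 and 264.2 and 310.5 against 74.28. HDAC9, a class II deacetylase, read 255.7 and 284.9 against 67.7, and 160.5 and 230.5 against 97.21, and its 24 h call was lost without the 3 carrying arrays. Of 13 elongation genes, 2 rose and 1 fell at 6 h, and 3 rose and 2 fell at 24 h. ELL2, a subunit of the super elongation complex, read 1081 and 904.9 against 482.4, and 954.5 and 864.8 against 503.1, and HEXIM1, the inhibitor of P-TEFb, rose by 0.88 at 6 h. The call of HEXIM1 was lost without either 6 h DMSO array and that of ELL2 at 24 h without the first 24 h array. None of 11 histone genes was called at either time by limma.

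For the metabolic and stress lists the shares over all genes tested were the same 5.86% higher and 6.86% lower at 6 h and 9.05% and 8.39% at 24 h. In hypoxia and glycolysis, 4 of 23 rose and 4 fell at each time, and without the 3 carrying arrays 1 fell at 6 h. ADM, the vasodilator adrenomedullin, read 1604 and 1633 against 633.9 and 1232 and 1110 against 528.9, and ANKRD37, a hypoxia target, 262.9 and 250.9 against 465.2 and 272.9 and 279.7 against 616.7. The first was below and the second above both DMSO arrays at each time. Of 20 sterol and fatty acid genes, 2 rose and 3 fell at 6 h, and none rose and 6 fell at 24 h, of which 3 falls were called without the 3 carrying arrays. SREBF1, a regulator of such genes, changed by -0.84 and -1.18. SCD, the desaturase, read 1676 and 1656 against 940.4 and 3442 and 3578 against 2357. Its DMSO values were 1.075 higher on the log2 scale at 24 h. Of 25 genes of the response to amino acid shortage, none rose and 5 fell at 6 h, and none rose and 3 fell at 24 h. SLC7A11, the cystine transporter, read 580.9 and 517.4 against 185.6 at 6 h, and the early-only member SLC38A2, an amino acid transporter, 3352 and 3107 against 1809. Leaving out the second 24 h DMSO array gave 6 rises at 24 h in that list, and leaving out the 3 carrying arrays gave no fall at 6 h. Leaving out either 24 h DMSO array gave 3 rises at 6 h. Without the 3 carrying arrays the 6 h calls of SREBF1, SLC7A11 and SLC38A2 were lost, and the difference between the times of SLC38A2 was also lost without either 6 h DMSO array or the second of 24 h. Of 13 heat shock genes, 2 rose and 1 fell at 6 h and 1 rose and 2 fell at 24 h, and of 27 lysosome genes, 2 rose and 2 fell and then 3 rose and 2 fell, near those shares. ATP6V1A, a subunit of the lysosomal proton pump, rose by 0.43 at 24 h.

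Interferon and antigen presentation genes and the marker lists of other cell types held a few single changes. Of 23 interferon genes, 1 rose and 1 fell at 6 h, and 2 rose and 3 fell at 24 h, within about 1 gene of the shares over all genes. Among them were IFIT1, an interferon-induced RNA-binding protein, at 0.92 and 0.91, and IFI44 at -0.53 and -0.86, the latter called. Of 2 tested leukocyte markers, HLA-DRA, an antigen-presenting molecule that melanoma cells can express, read 687.3 and 744.7 against 558 and 574.8 and 621.7 against 155. Its 6 h call was lost without any 1 of the 4 A375 DMSO arrays. Of 4 tested keratinocyte and epithelial markers, KRT14, a keratin of basal epithelium, read 302.2 and 312 against 165.6 and 335.9 and 254.3 against 86.37. The 6 h calls of KRT14 and IFIT1 were lost without the 3 carrying arrays. KRT5, the partner keratin of KRT14, was at the floor on all 6 arrays. No fibroblast marker of 5 tested was called. Of 7 melanocyte markers, MITF and SOX10 fell at both times; leaving out the second 6 h DMSO array, so that the carrying array was the only control, gave 6 falls at 6 h.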

How the data were processed

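RNA was measured on 1-colour Affymetrix arrays, and the values are the authors' deposited linear intensities of probe sets, of which a gene has 1 or more. How they were computed (software, background, scaling) is not given in the sources used here. From 19.3% to 21% of an A375 array's intensities were below 0, and array medians ran from 23.6 to 29, so arrays were quantile normalized on the linear scale, set to a floor of 32 and log2 transformed. The platform annotation gave a single symbol to 41091 of 54613 probe sets (1801 had several, 11721 none), and the brightest stood for each of 19775 genes. Genes with a mean log2 below 5.007 were dropped, which left 14130. A group-means model over all 18 arrays and 12 groups (6 residual degrees of freedom) was fitted with limma 3.58.1 in R 4.3.3, with Benjamini-Hochberg adjustment over all genes tested, and tested on simulated data. The number of arrays limits the precision.

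Named genes were MITF, MYC, EP300 and CREBBP; per time and direction, 8 by size; per timing class and direction, 6; and up to 4 called members of each of 33 gene lists. Of 707 genes on the lists, 626 were tested. Some genes stand on several lists. DUSP6, IER3, NGFR, MTF1, SLC30A1 and SLC39A10 fall outside the rule. The members and lists were chosen with earlier results of these data known. Promoters came from RefSeq (GRCh38.p14), matched by symbol. Alternatives were another scaling, floor, filter, probe set choice and control, a replicate block, the A375 arrays alone, and leaving out each DMSO array or the 3 that carried another line's transcripts (1 of A375, 2 of WM2664).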

Additional observations from a re-analysis of the deposited data

Results flagged for a closer look

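The response of A375 differed between the times for 549 genes, and from the mean response of the other 2 lines for 1684 genes at 6 h and 3430 at 24 h. The counts against the other lines include genes at the floor there, for which the difference only repeats the A375 response. Each was tested as a difference of responses with limma, and no explanation was weighed. Among early-only genes, the response at 24 h minus that at 6 h was 2.61 for LIF, 1.72 for ARHGAP23, 1.28 for CXCL1, 1.25 for ABCA1, 1.74 for MAML3 and 1.27 for JADE2. It was -0.96 for ZNF335, -0.816 for ZNF273, -0.85 for PLAGL1, -1.31 for RBM26-AS1, -0.875 for FOXA1 and -0.528 for FBXO33. Among late-only genes it was 1.80 for MT1E, 1.45 for BHLHE40, 1.27 for MT1F, 1.62 for GPR107, 0.99 for HGSNAT and 0.889 for TFPI2. It was -2.20 for PYGB, -1.92 for TNC, -1.68 for C3, -1.74 for CALB2, -1.85 for AP1M2 and -1.69 for LOC389199.

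Where the direction turned, the difference was 2.16 for CXCL8, 1.94 for IL11, 1.79 for TM4SF1, 1.12 for ASAP2, 1.03 for KLF10 and 1.03 for CD163L1. It was -1.63 for MSX2, -1.38 for PIK3R3, -1.34 for VSNL1, -0.918 for EFNB2, -0.899 for DYNLL2 and -0.64 for DNAJB1. Between lines, the response of A375 minus the mean of the others was -0.601 at 6 h and -0.638 at 24 h for EGR1. At 24 h it was 1.22 for MT1E, 1.67 for BHLHE40, -3.16 for IGFBP3 and -3.37 for SEMA3C, and 1.04 for CCNG2, an atypical cyclin that rose by 1.57 in A375.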

How the results depend on the processing

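With 1 A-485 array per time and DMSO pairs that may be technical, the precision is that of the DMSO pairs of all 3 lines. It is overstated for genes at the floor in the other lines. Of 317 called values of named genes, 61 kept their call under every alternative; 222 lost it with the A375 arrays alone, 166 with unscaled values, 107 without the 3 carrying arrays and 67 with a floor of 16. With unscaled values, the calls came to 425 at 6 h, 632 at 24 h, 85 for the difference between the times, 76 for DMSO 24 h minus 6 h, 398 and 801 for A375 against the other lines at 6 h and 24 h, 18 early only, 40 late only, 238 at both times in 1 direction and 5 opposite. With a floor of 16 they came to 246 for the difference between the times, 100 for DMSO, 991 against the other lines at 6 h, 43 early, 88 late and 18 opposite. With the A375 arrays alone they came to 632 and 817 at the 2 times, 11 for DMSO, 198 early and 295 at both times. Without the 3 carrying arrays they came to 1161 at 6 h, 136 late and 661 at both times.

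Leaving out 1 DMSO array at a time gave from 1483 to 1902 calls at 6 h, 2048 to 2576 at 24 h, 446 to 662 for the difference between the times, 252 to 471 for DMSO, 1489 to 1904 and 3010 to 3767 against the other lines, 95 to 163 early, 165 to 246 late, 895 to 1091 at both times and 36 to 66 opposite. The replicate numbers did not pair the arrays: over 15 pairs of groups the correlation of same-numbered deviations ran from -0.0357 to 0.0596. With the replicate block, 241 genes were called for DMSO 24 h minus 6 h against 388, and 27 of the 317 calls were lost. Uncalled values changed sign for CREBBP at 6 h, which ran from -0.157 to 0.212 without 1 DMSO array, lowest without the second A375 array of 6 h. For EP300 at 6 h they ran from -0.00391, without the first A375 array of 6 h, to 0.0348, and reached -0.00395 without the carrying arrays; at 24 h the value was -0.157 with the A375 arrays alone. For PRDM1 the difference between the times was -0.037 with a floor of 64.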
